A study of Homo sapiens with 8 samples.

Results

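The transcribed spacers of the 45S pre-rRNA are the stretches that flank and separate 18S, 5.8S and 28S rRNA, and the sites described here are the single nucleotides of these spacers at which the iCLIP libraries of 2 human dihydrouridine synthases held counts. A site belonged to the set if it lay on the sense strand of the 45S reference within the 5′ external transcribed spacer (5′ ETS, positions 1 to 3654), the internal transcribed spacers ITS1 (5524 to 6600) and ITS2 (6758 to 7924), or the 3′ external transcribed spacer (3′ ETS, 12991 to 13351). Any such site with at least 1 count in any library belonged, however large the count. The set was chosen with earlier results of these data known. Over all libraries 2147 distinct spacer sites were found among 16258 distinct sense sites of the series. The reference is the gene RNA45SN1 on chr21:8433222-8446572 (GRCh38.p14, plus strand), and the spacers make up 6259 nt, or 46.9%, of it. The limits of the spacers matched the RefSeq genes RNA18SN1, RNA5-8SN1 and RNA28SN1 on the same stretch.

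Dihydrouridine synthases reduce uridine to dihydrouridine, and tRNA is their best known substrate. Flp-In T-REx 293 cells, a line of human embryonic kidney origin, carried an inducible copy of DUS2L or of DUS1L with a 3xFLAG tag. The 4 groups, of 2 libraries each, were 3xFLAG-DUS2L with 5-chlorouridine (5-ClUrd), 3xFLAG-DUS2L untreated, 3xFLAG-DUS1L with 5-ClUrd and 3xFLAG-DUS1L untreated, and the series calls the replicates biological. All groups received tetracycline at 1 µg/mL for 12 h and again for another 12 h in fresh medium, which in the treated groups also held 100 µM 5-ClUrd, an analogue of uridine that enters newly made RNA. The tagged enzymes were expressed from an inducible construct in addition to whatever the cells make themselves, which limits the cells as a model of the untagged enzymes.

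RNA polymerase I makes the 45S precursor in the nucleolus as a single transcript. Nucleases then remove the spacers: the 5′ ETS, where the U3 small nucleolar RNA pairs with the precursor, and part of ITS1 go as the small subunit forms, while ITS2 and the 3′ ETS are removed on the path to the large subunit. Spacer RNA is short-lived and nucleolar, whereas the mature rRNAs are long-lived and mostly cytoplasmic. Counts on the spacers lie on sequence that the mature rRNAs lack, and which RNA they come from was not tested.

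The sense counts of a library were 370878 and 363024 for DUS2L with 5-ClUrd, 130011 and 172078 for untreated DUS2L, 824657 and 542521 for DUS1L with 5-ClUrd, and 144322 and 7369 for untreated DUS1L. The second untreated DUS1L library stood apart, with 36 counts on the whole 45S reference and 3 of them in spacers, so that the untreated DUS1L group rests in effect on a single library. tRNA took between 80.6% and 99.5% of sense counts, and no site of any reference held more than 1436 counts. The human genome holds several near-identical copies of the 45S gene, which share reads, so that a count belongs to the repeat and not to one copy. Levels below are given as CPM, the sense counts of a spacer scaled to 1000000 sense counts of the same library, and intervals on them are exact binomial 95% intervals that cover counting error only. The site files of DUS2L, but not those of DUS1L, are named as premapped to non-coding RNA, so that enzyme and file making cannot be told apart in any comparison between the enzymes.

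MIR10396B, a microRNA hairpin that RefSeq annotates within the 5′ ETS, is shown because it is the stretch of spacer for which sequence was at hand, and it lets the counted bases be seen. It lies on chr21:8436324-8436374 (plus strand, GRCh38.p14), at positions 3103 to 3153 of the 45S reference, and capitals mark the 13 of its 51 bases with at least 1 sense count in any library.
MIR10396B: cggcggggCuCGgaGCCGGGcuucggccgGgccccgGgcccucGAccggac
The hairpin held 0 and 3 counts in DUS2L with 5-ClUrd, 2 and 5 in untreated DUS2L, 9 and 11 in DUS1L with 5-ClUrd, and 4 and 0 in untreated DUS1L. All 13 counted bases were C, G or A, and none of the 4 uridines of the hairpin carried a count. Whether a site is the crosslinked base or the base before it is not given in the sources used here, so these are the bases at the deposited positions and need not be the crosslinked ones. With 34 counts in all, the groups were not compared here.

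ITS2 was the spacer that set untreated DUS2L libraries apart. It held 227 and 408 counts in DUS2L with 5-ClUrd, against 859 and 971 counts in untreated DUS2L. This was 612 and 1124 CPM with 5-ClUrd and 6607 and 5643 CPM untreated, and the groups did not overlap. How many of all regions lacked overlap was not counted, for this or any comparison below. ITS2 was 7.05-fold lower with 5-ClUrd (log2 fold change -2.82 ± 0.34 SE, adjusted p = 0.000282, edgeR quasi-likelihood test). It was 1 of the 4 spacers called, all of them tested, while 69.0% of the 58 tested regions (50 tRNA families, 5S, the 3 mature rRNAs of the precursor and the 4 spacers) passed in either direction and 20.7% passed as lower. The median log2 fold change was -0.63 over the 4 spacers and 0.75 over all 58 regions. The mature rRNAs beside it on the reference, 18S and 28S, were also lower, with log2 fold changes of -2.31 (adjusted p = 0.000312) and -2.35 (adjusted p = 0.00044). The call for ITS2 was lost when libraries were scaled to their 45S counts in place of all sense counts, with a log2 fold change of -0.59 and an adjusted p of 0.176 (edgeR).

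**Figure D1:**
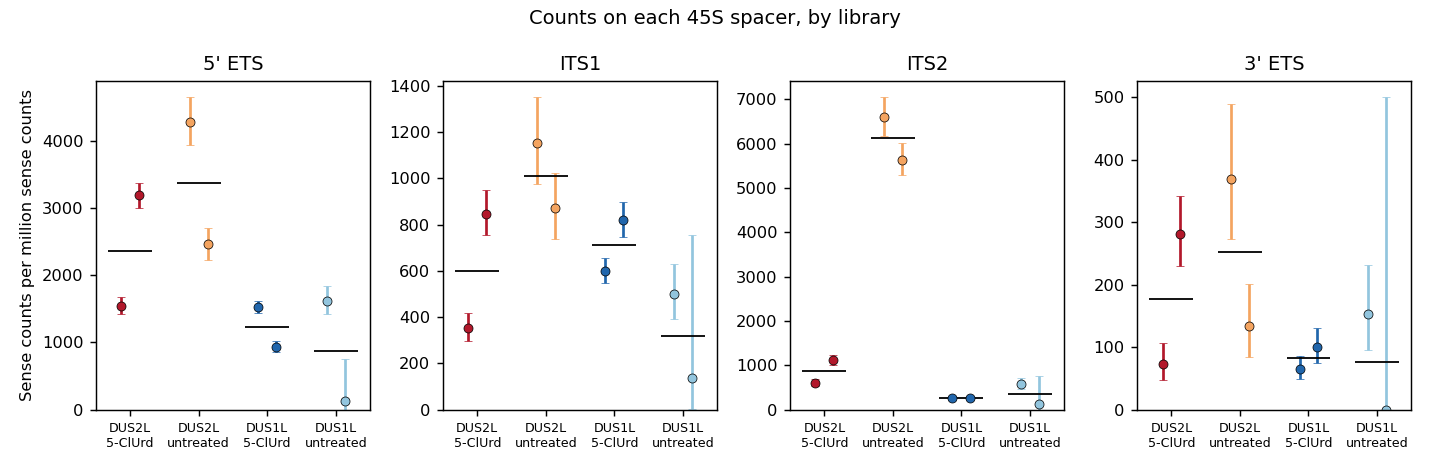
Levels of each of the 4 spacers in sense counts scaled to 1000000 sense counts of the library (CPM), by library; bars are exact 95% binomial intervals for counting error and black lines are group means. ITS2 was at 5643 and 6607 CPM in the untreated DUS2L libraries and at or below 1124 in the other 6, while the interval of the second untreated DUS1L library is wide because it held 3 spacer counts.

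The 5′ ETS, the longest spacer, held 571 and 1157 counts in DUS2L with 5-ClUrd and 557 and 423 counts in untreated DUS2L. Its levels were 1540 and 3187 CPM with 5-ClUrd and 4284 and 2458 untreated, so that the groups overlapped. The log2 fold change of -0.51 ± 0.41 did not pass (adjusted p = 0.279, edgeR). ITS1, which separates 18S from 5.8S, was at 353 and 848 CPM with 5-ClUrd, against 1154 and 872 untreated. Its groups did not overlap, but the log2 fold change of -0.75 ± 0.56 did not pass (adjusted p = 0.246). The 3′ ETS, the shortest spacer, was at 72.8 and 281 CPM with 5-ClUrd and 369 and 134 untreated, and its groups overlapped (log2 fold change -0.49 ± 1.14, adjusted p = 0.715).

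The direction for these 3 spacers depended on what the libraries were scaled to. Per 45S counts, the log2 fold changes between 5-ClUrd and untreated DUS2L were 1.74 for the 5′ ETS (adjusted p = 0.00241), 1.44 for ITS1 (adjusted p = 0.0244) and 1.70 for the 3′ ETS (adjusted p = 0.108, all edgeR), so that 2 spacers were called higher and 0 lower. The same scaling moved the median over all 58 regions by 2.24, to 2.99, and called 84.5% of regions, all of them higher. With TMM factors the 5′ ETS was called lower (log2 fold change -1.14, adjusted p = 0.005) and so was ITS1 (log2 fold change -1.38, adjusted p = 0.0336), with the median of all regions at 0.14 and 37.9% of regions called lower. The second 5-ClUrd library of DUS2L decided these values too: without it all 4 spacers were called lower, as were 31.0% of all regions.

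**Figure D2:**
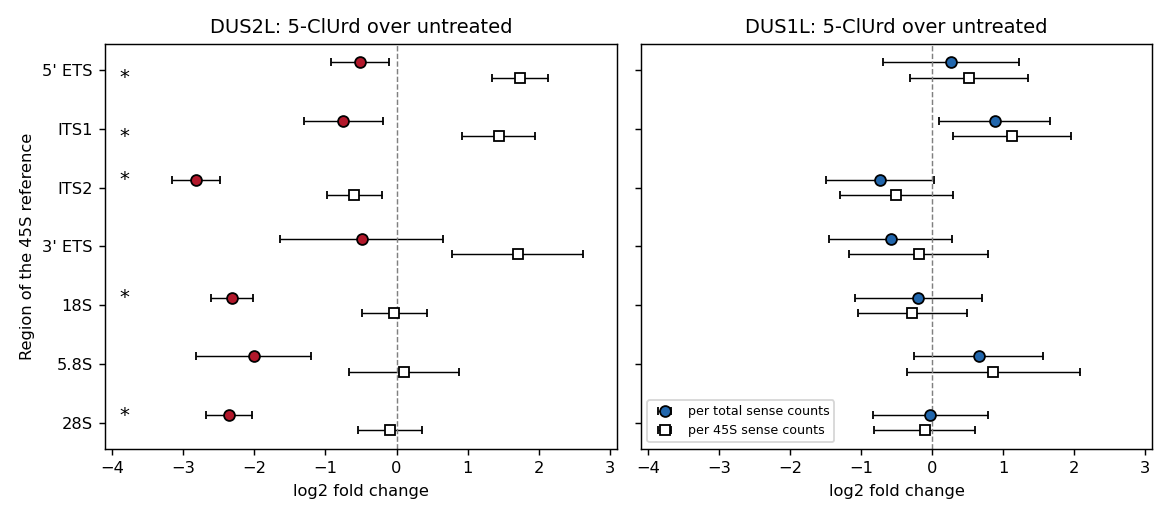
Log2 fold change of 5-ClUrd over untreated for the 4 spacers and 3 mature rRNAs, with bars of 1 SE, in DUS2L (left) and DUS1L (right); filled circles are scaled to total sense counts, open squares to 45S sense counts, and a star marks an adjusted p under 0.05 in edgeR at the height of its symbol. In DUS2L the 5′ ETS, ITS1 and 3′ ETS lie left of 0 on the first scale and right of 0 on the second, while ITS2 lies left of 0 on both.

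Within the 45S reference, spacers took a larger share of counts in treated than in untreated DUS2L libraries. The share was 10.2% and 12.7% with 5-ClUrd and 6.46% and 6.73% untreated, a difference of 4.83 percentage points without overlap of the groups. With 2 libraries against 2, the exact two-sided permutation test gave p = 0.333, the smallest it allows. The make-up of the spacer counts differed as well. ITS2 took 23.7% and 20.7% of the spacer counts with 5-ClUrd and 53.2% and 62.0% untreated, and the 5′ ETS took 59.7% and 58.6% with 5-ClUrd and 34.5% and 27.0% untreated. For comparison, ITS2 is 18.6% and the 5′ ETS 58.4% of the spacer length. The treated DUS2L libraries were thus closer to the proportions of length than the untreated ones. In DUS1L the first untreated library was the closer one, while the ITS2 share was lower with 5-ClUrd, as in DUS2L. That untreated DUS1L library had 20.4% in ITS2 and 56.8% in the 5′ ETS. With 5-ClUrd, DUS1L had 10.7% and 12.4% in ITS2. Its 5′ ETS shares with 5-ClUrd, 62.2% and 44.2%, lay on either side of the untreated value.

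Counts per length show how far below 28S rRNA the spacers of DUS2L lay. As a percentage of the density of 28S in the same library, the 5′ ETS of DUS2L was at 11.9% and 14.7% with 5-ClUrd and at 4.11% and 3.37% untreated. ITS1 was at 9.29% and 13.3% with 5-ClUrd and at 3.76% and 4.06% untreated. ITS2 ran the other way, at 14.9% and 16.2% with 5-ClUrd and 19.9% and 24.3% untreated. None of these spacer groups overlapped, and how many of all regions lacked overlap was not counted. The mature 5.8S rRNA was at 14.6% and 23.9% with 5-ClUrd and at 11.9% and 22.1% untreated. ITS2 was thus not below every mature rRNA.

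In DUS1L libraries no spacer passed in either direction, against 23.2% of the 56 tested regions. The 5′ ETS was at 1528 and 936 CPM with 5-ClUrd and at 1621 and 136 untreated, and ITS1 at 601 and 820 with 5-ClUrd and 499 and 136 untreated. ITS2 was at 263 and 264 with 5-ClUrd and at 582 and 136 untreated, where 136 CPM stands for 1 count. The 3′ ETS was at 65.5 and 99.5 CPM with 5-ClUrd and at 152 and 0 untreated, and the interval of the count of 0 reaches 500 CPM. The log2 fold changes were 0.27 ± 0.96 for the 5′ ETS (adjusted p = 0.817), 0.88 ± 0.78 for ITS1 (adjusted p = 0.410), -0.73 ± 0.76 for ITS2 (adjusted p = 0.469) and -0.58 ± 0.87 for the 3′ ETS (adjusted p = 0.621, all edgeR). Only ITS1 was without overlap, and how many of all regions lacked overlap was not counted. Its 1 count in the second untreated library has an interval of 3.44 to 756 CPM, which includes the lower treated value. No spacer had an unadjusted p under 0.05. DESeq2's Wald test also called 0 of the 4. TMM factors turned the 5′ ETS to -0.63 and ITS1 to -0.042 (log2) while the median of all regions moved by -0.92.

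Spacers were a larger part of the 45S counts in DUS1L than in DUS2L libraries. The share was 23.1% and 25.6% in DUS1L with 5-ClUrd and 21.8% and 8.33% untreated, where the last value is 3 of 36 counts. The difference between treated and untreated was 9.24 percentage points (exact two-sided permutation test, p = 0.333, the smallest possible), and it was 2.51 points without the second untreated library. ITS1 stood out in the treated DUS1L libraries: its density was 54.1% and 77.6% of that of 28S, and it took 24.5% and 38.7% of the spacer counts, against 17.5% in the first untreated library. ITS1 is 17.2% of the spacer length.

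The difference between the 2 effects of 5-ClUrd was tested in a fit of all 8 libraries. For ITS2, the effect in DUS2L minus that in DUS1L was -1.99 ± 0.70 (log2, adjusted p = 0.0646, edgeR), which did not pass. The differences for the 5′ ETS (-0.68), ITS1 (-1.57) and 3′ ETS (0.13) did not pass either, with adjusted p of 0.587, 0.171 and 0.927, while 27.6% of the 58 regions did. Without the first untreated DUS1L library, which leaves the library of 3 spacer counts alone, the ITS2 difference passed (adjusted p = 0.0197), and it also passed with DESeq2's size factors (adjusted p = 0.0474).

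Between the enzymes, ITS2 was the 1 spacer called on the scale of total sense counts, and it was higher in DUS2L. In treated libraries its level was 612 and 1124 CPM in DUS2L and 263 and 264 in DUS1L, a 3.29-fold difference (log2 fold change 1.72 ± 0.48, adjusted p = 0.0140, edgeR). Over all regions 63.8% were called. The call was lost with TMM factors (adjusted p = 0.151) and with the replicate number as a block (adjusted p = 0.189). It was also lost without the first treated DUS1L library (adjusted p = 0.0849), the second (0.0935) or the second treated DUS2L library (0.0815). In untreated libraries ITS2 was at 6607 and 5643 CPM in DUS2L and at 582 and 136 in DUS1L, 13.1-fold higher in DUS2L (log2 fold change 3.71 ± 0.55, adjusted p = 0.000394), against 84.5% of all regions called. Scaled to 45S counts, ITS2 lost both calls and turned, to -0.16 in treated libraries (adjusted p = 0.733) and -0.11 in untreated libraries (adjusted p = 0.876, edgeR). 28S rRNA went with it in both comparisons, with log2 fold changes of 2.23 (adjusted p = 0.00226) in treated and 4.54 (adjusted p = 6.06e-05) in untreated libraries.

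The other spacers did not pass between the enzymes. In treated libraries the log2 fold changes of DUS2L over DUS1L were 0.94 ± 0.71 for the 5′ ETS (adjusted p = 0.279), -0.24 ± 0.56 for ITS1 (adjusted p = 0.730) and 1.10 ± 0.90 for the 3′ ETS (adjusted p = 0.306). In untreated libraries they were 1.62 ± 0.75 for the 5′ ETS (adjusted p = 0.0767), 1.33 ± 0.64 for ITS1 (adjusted p = 0.0808) and 0.97 ± 1.07 for the 3′ ETS (adjusted p = 0.408, all edgeR). Scaled to 45S counts, ITS1 was lower in DUS2L in treated libraries (log2 fold change -2.20, adjusted p = 0.0028), the 1 spacer called on that scale against 67.2% of all regions, whose median stood at -1.28. On that scale the 5′ ETS, ITS1 and 3′ ETS were all lower in DUS2L in untreated libraries, with log2 fold changes of -2.22, -2.54 and -2.87 and adjusted p of 0.00396, 0.00142 and 0.008, against 77.6% of all regions called and a median over all regions of -2.42. These contrasts use the same libraries as the comparisons of 5-ClUrd with untreated and are not independent of them.

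**Figure D3:**
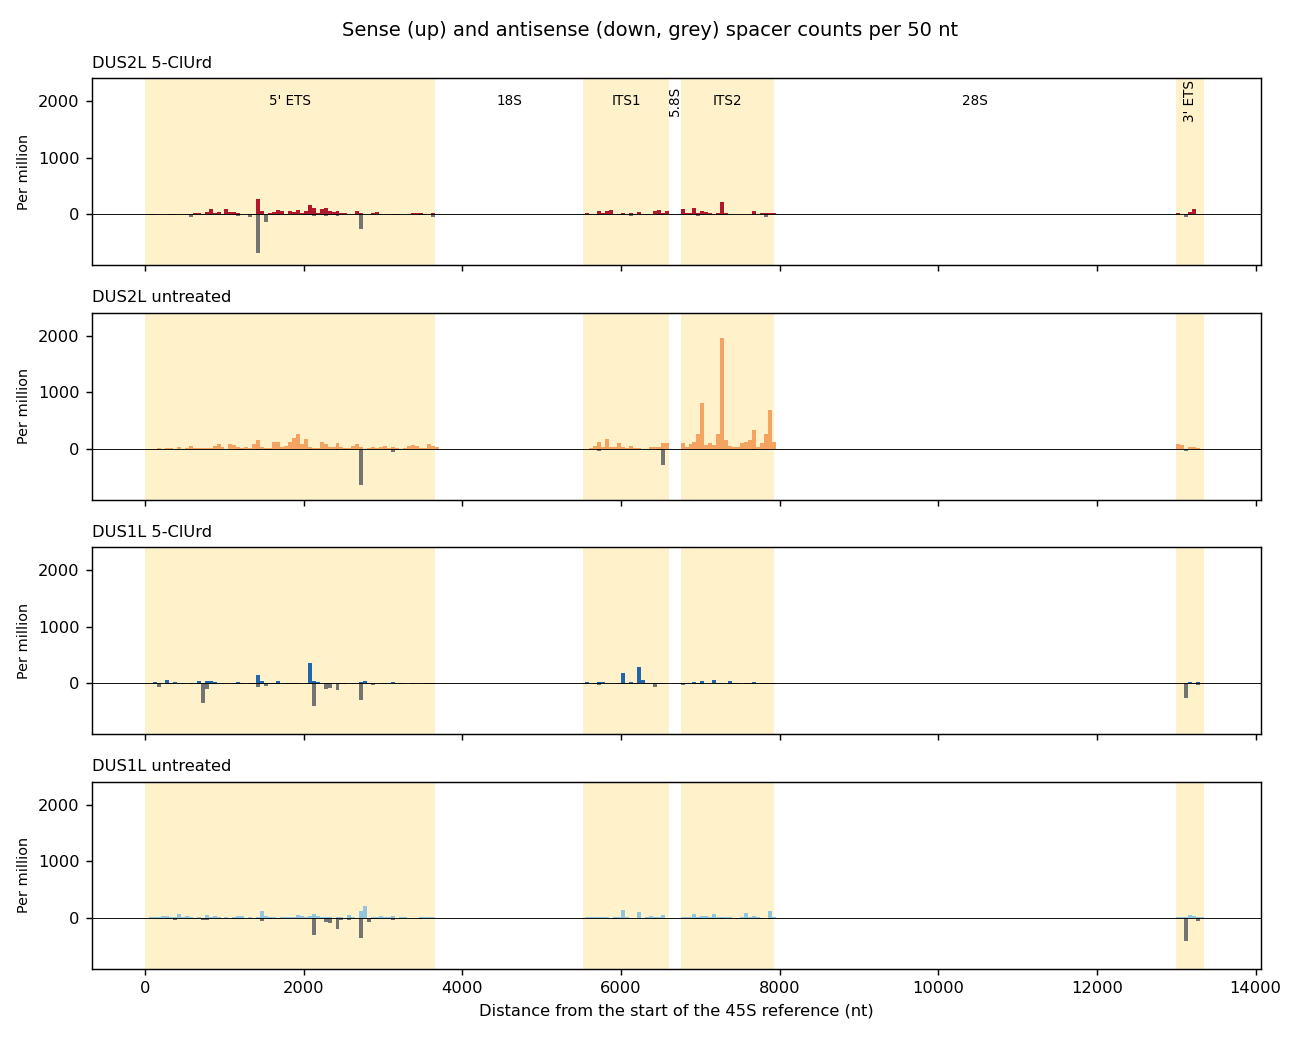
Sense (up, coloured) and antisense (down, grey) spacer counts in bins of 50 nt along the 45S reference. Counts of the 2 libraries of each group are pooled and scaled to 1000000 pooled sense counts (CPM). Spacers are shaded and counts on mature rRNA are not drawn. The highest sense bar is at positions 7251 to 7300 of ITS2 in untreated DUS2L (1953 CPM), and the highest antisense bar is at positions 1401 to 1450 of the 5′ ETS in DUS2L with 5-ClUrd (688 CPM).

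Within ITS2, the lower level of treated DUS2L libraries was not spread evenly. In the first 200 nt, positions 6758 to 6957 beside 5.8S, there were 46 and 130 counts with 5-ClUrd and 56 and 53 untreated, so that untreated libraries had 1.53 times the treated level in CPM. At positions 7158 to 7357 there were 84 and 113 counts with 5-ClUrd and 315 and 419 untreated, 9.03 times the treated level in the untreated libraries. In the last window, 7758 to 7924 beside 28S, there were 23 and 40 counts with 5-ClUrd and 149 and 200 untreated, or 13.4 times. The other 3 windows of ITS2 had ratios of 6.57 to 9.62, and the 6 windows of ITS1 had ratios of 1.05 to 4.25. In DUS1L the last window of ITS2 held 9 and 9 counts with 5-ClUrd and 17 and 1 untreated, a ratio of 9.22. The other windows of ITS2 in DUS1L had ratios of 0.307 to 2.12. These ratios are descriptions of summed counts with no test.

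Within the 5′ ETS, counts lay mostly between positions 1001 and 2500 in DUS2L. The window of 1501 to 2000 took 20.8% and 16.6% of 5′ ETS counts with 5-ClUrd and 32.9% and 29.8% untreated in DUS2L, and the window of 2001 to 2500 took 31.5% and 30.9% with 5-ClUrd and 21.0% and 17.5% untreated. Neither window's groups overlapped, and the most used window thus differed between treated and untreated libraries. In DUS1L with 5-ClUrd the window of 2001 to 2500 took 36.0% and 36.6%, against 14.5% in the first untreated library, which had its highest share, 29.5%, at 2501 to 3000. The first 500 nt took 1.23% and 2.25% of 5′ ETS counts in DUS2L with 5-ClUrd, and 11.6% and 7.09% in DUS1L with 5-ClUrd.

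Single sites were sparse. Of the 2147 spacer sites, 1347 had a count in 1 library only, 488 in 2 libraries and 8 in 6 libraries, and none had one in more. Between 45.2% and 72.0% of a library's spacer sites carried a single count, leaving aside the library with 3 spacer counts. Sites shared by the 2 replicates were 43.1% and 28.9% of each library's sites in DUS2L with 5-ClUrd and held 59.0% and 58.9% of its spacer counts. In untreated DUS2L they were 25.7% and 29.6% of sites with 41.6% and 52.8% of counts, and in DUS1L with 5-ClUrd 28.9% and 52.7% of sites with 70.3% and 85.6% of counts. Sites found in both enzymes with 5-ClUrd numbered 218, which were 19.1% of the DUS2L sites and 33.5% of the DUS1L sites.

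The 10 sites with the highest summed count fell into a few narrow places. They took 7.01% and 13.1% of spacer counts in DUS2L with 5-ClUrd and 4.71% and 7.91% in untreated DUS2L, and 29.7% and 37.6% in DUS1L with 5-ClUrd and 6.07% in the first untreated DUS1L library. Of the 10, 5 lay in the 5′ ETS, 3 in ITS1 and 2 in ITS2.

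**Figure D4:**
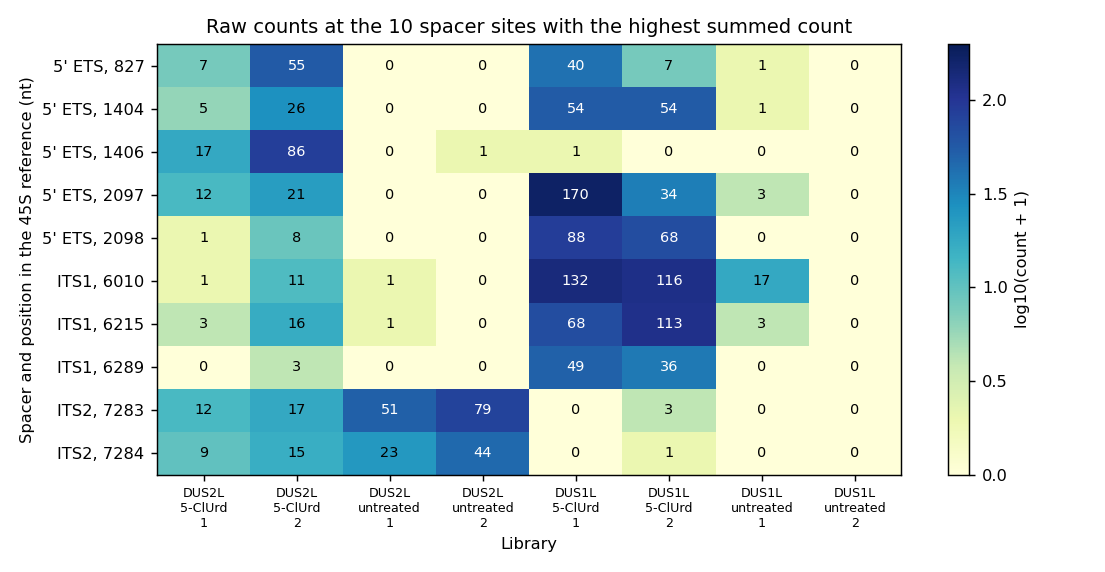
Raw sense counts (numbers, coloured by log10 of count + 1) at the 10 spacer sites with the highest summed count, by library and position in the 45S reference. The ITS1 sites are high in the 2 DUS1L libraries with 5-ClUrd (36 to 132 counts), position 1406 is high in DUS2L with 5-ClUrd (17 and 86 counts), and positions 7283 and 7284 in untreated DUS2L (23 to 79 counts).

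ITS1 held 3 of the 10 sites. Position 6010 (chr21:8439231), the site with the highest summed count, had 132 and 116 counts in DUS1L with 5-ClUrd and 17 and 0 in untreated DUS1L, and it did not pass (adjusted p = 0.396, edgeR). Position 6215 (chr21:8439436) had 68 and 113 counts in DUS1L with 5-ClUrd and 3 and 0 in untreated DUS1L, 6.69 times the CPM of the untreated group, counting interval 2.25 to 32.8 (adjusted p = 0.0416). Position 6289 had 49 and 36 counts with 5-ClUrd and none untreated, and was at least 3.14-fold higher with 5-ClUrd, taking 3 counts over the untreated group as the floor for a count of 0 (adjusted p = 0.0116). In DUS2L with 5-ClUrd these 3 positions had 1 and 11, 3 and 16, and 0 and 3 counts. All 3 were lower there than in DUS1L with 5-ClUrd. The log2 fold changes were -3.47 ± 1.07, -2.46 ± 1.03 and -3.81 ± 1.27 (adjusted p = 0.00353, 0.0342 and 0.00725, edgeR). The 17 nt around 6215, positions 6207 to 6223, held 4.58% and 6.82% of all ITS1 counts in DUS2L with 5-ClUrd, against 34.7% and 50.1% in DUS1L with 5-ClUrd.

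In the 5′ ETS, sites at 2097 and 1404 had counts with both enzymes when 5-ClUrd was present. Position 2097 (chr21:8435318) had 12 and 21 counts in DUS2L with 5-ClUrd and none untreated, at least 4.53-fold higher with 5-ClUrd (adjusted p = 0.0285). In DUS1L it had 170 and 34 counts with 5-ClUrd and 3 and 0 untreated, 7.54 times the CPM of the untreated group, counting interval 2.55 to 36.9 (adjusted p = 0.0495). Its neighbour 2098 had 1 and 8 counts in DUS2L with 5-ClUrd and none untreated, and 88 and 68 counts in DUS1L with 5-ClUrd and none untreated, where it was at least 5.77-fold higher with 5-ClUrd (adjusted p = 0.00605). Together, positions 2089 to 2106 held 3.68% and 5.53% of 5′ ETS counts in DUS2L with 5-ClUrd against 0.0% and 0.236% untreated, and 27.5% and 26.4% in DUS1L with 5-ClUrd against 2.56% in the first untreated DUS1L library. Positions 1396 to 1414, around 1404, were less separated in DUS2L, with 32 and 157 counts with 5-ClUrd and 26 and 11 untreated, or 5.60% and 13.6% of 5′ ETS counts against 4.67% and 2.60%. An untreated DUS2L peak lay at 1409 to 1413, and 1410 was the highest 5′ ETS site of that library with 13 counts. In DUS1L the stretch held 116 and 83 counts with 5-ClUrd and 1 and 0 untreated.

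Of positions 1404 and 1406, which lie 2 nt apart, only 1406 passed between the enzymes. Position 1404 (chr21:8434625) had 5 and 26 counts in DUS2L with 5-ClUrd and none untreated (at least 4.25-fold, adjusted p = 0.0323), and 54 and 54 counts in DUS1L with 5-ClUrd and 1 and 0 untreated (adjusted p = 0.0316). Position 1406 (chr21:8434627) had 17 and 86 counts in DUS2L with 5-ClUrd and 0 and 1 untreated (adjusted p = 0.00754), but 1 and 0 counts in DUS1L with 5-ClUrd. Between treated libraries the log2 fold change of DUS2L over DUS1L was 7.01 ± 1.39 at 1406 (adjusted p = 4.82e-06) and -0.95 ± 0.99 at 1404 (adjusted p = 0.420, edgeR). Position 827 had 7 and 55 counts in DUS2L with 5-ClUrd and none untreated (at least 8.51-fold, adjusted p = 0.00843), and 40 and 7 counts in DUS1L with 5-ClUrd and 1 and 0 untreated (adjusted p = 0.192). Positions 1403 (37 and 21 counts with 5-ClUrd, none untreated) and, in ITS1, 6221 (27 and 17 counts with 5-ClUrd, none untreated) were the remaining sites called in DUS1L.

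ITS2 held the sites of untreated DUS2L. Position 7283 (chr21:8440504) had 12 and 17 counts in DUS2L with 5-ClUrd and 51 and 79 untreated, 10.9 times the treated level in the untreated libraries with a counting interval of 7.24 to 16.9 (adjusted p = 0.00256). Its neighbour 7284 had 9 and 15 counts with 5-ClUrd and 23 and 44 untreated (adjusted p = 0.0385). Toward the end of ITS2, position 7880 (chr21:8441101) had 2 and 6 counts with 5-ClUrd and 25 and 46 untreated, and 7881 had 0 and 3 with 5-ClUrd and 13 and 32 untreated (adjusted p = 0.0028 and 0.00388). Position 7001 had 0 and 1 counts with 5-ClUrd and 13 and 20 untreated (adjusted p = 0.00285). All of these were separated in every library, and in DUS1L libraries none of the 5 had more than 3 counts. Position 7881 had 2 and 0 counts in DUS1L with 5-ClUrd and 3 and 1 in untreated DUS1L, below the 10 counts needed for a test.

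The remaining ITS2 sites among the 10 of smallest adjusted p in DUS2L had no count with 5-ClUrd. Position 7878 had 9 and 8 counts untreated and 7814 had 5 and 10, which makes them at least 13.8-fold and 12.1-fold lower with 5-ClUrd (adjusted p = 0.00509 and 0.00873). In DUS1L, 7878 had 0 and 0 counts with 5-ClUrd and 4 and 0 untreated. The DUS1L counts at 7814 were 0 and 1 with 5-ClUrd and 0 and 0 untreated. Positions 7215 and 7272 passed as well (adjusted p = 0.00485 and 0.0075), although all their counts, 16 and 14, came from the first untreated library and the second had none.

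Over all spacer sites with at least 10 counts in the fitted libraries, 7 were higher and 32 lower with 5-ClUrd in DUS2L among 112 tested, or 34.8%, while 31.9% of all 5140 tested sites passed in either direction. By spacer, 27 of 53 tested ITS2 sites were lower and 1 higher, 4 of 42 in the 5′ ETS were higher and 4 lower, 2 of 13 in ITS1 were higher and 0 lower, and 1 of 4 in the 3′ ETS was lower. Lower calls made up 17.0% of all tested sites. In DUS1L, 7 of 51 tested spacer sites were higher and 0 lower, or 13.7%, while 34.0% of all 4715 tested sites passed, and 4 of the 7 lay in the 5′ ETS and 3 in ITS1. That split depended on the setting: a minimum count of 5 gave 1 higher and 7 lower among 116 tested, of which 1 was among the 7 above, and TMM factors gave 1 higher and 2 lower, while a minimum count of 20 gave 9 higher and 0 lower. Between treated libraries, 46 of 165 tested spacer sites were higher in DUS2L and 22 lower, while 52.4% of all 7873 sites passed. By spacer, 15 of 64 ITS2 sites were higher in DUS2L and 4 lower, 21 of 69 in the 5′ ETS were higher and 8 lower, and 8 of 25 in ITS1 were higher and 9 lower. A site could pass the minimum through the group in which it was high, so that these counts do not describe all members.

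These site calls hung on single libraries and on the tool. In DUS2L, no site of the whole series was called without the first untreated library (0 of 4350 tested) or without the second (0 of 4417), so that the 0 spacer sites called there say nothing about the spacers. When the first treated library was left out 15 spacer sites were called, of 1047 in all, and 12 of 1025 when the second was. DESeq2's Wald test called 15 of 1074, and these 15 were all among the 39. In DUS1L, 0 spacer sites were called without the first untreated library, of 179 in all, while 13 of 1549 were called without the second treated library and 10 of 1227 without the first. DESeq2's Wald test called 97 sites, 0 of them in spacers. Between treated libraries, 42 of 3397 called sites were spacer sites without the first DUS2L library with 5-ClUrd and 29 of 3227 without the second. The counts were 12 of 2338 without the first DUS1L library with 5-ClUrd and 13 of 2430 without the second, against 68 of 4122 with all libraries. The median log2 fold change over tested spacer sites was -1.86 in DUS2L, against 0.16 over all tested sites, and 2.21 in DUS1L, against 3.55 over all tested sites. In DUS2L the spacer median turned to 1.06 without the first untreated library (0.94 over all sites) and was -0.56 without the second and -3.68 without the second treated library. In DUS1L it was 5.91 without the first untreated library (6.99 over all sites) and 0.17 with the Wald test (0.93 over all sites).

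The deposited peaks were narrow intervals of 2 to 6 nt. Sense peaks in spacers numbered 10 and 21 in DUS2L with 5-ClUrd and 11 and 8 in untreated DUS2L, and 18 and 10 in DUS1L with 5-ClUrd and 6 and 0 in untreated DUS1L. All 10 peaks of the first treated DUS2L library overlapped a peak of the second by at least 1 nt, which was 10 of its 21. In untreated DUS2L 3 of 11 and 3 of 8 overlapped, and in treated DUS1L 6 of 18 and 6 of 10. In untreated DUS2L, 5 of 11 and 7 of 8 spacer peaks lay in ITS2, against 3 of 10 and 4 of 21 in DUS2L with 5-ClUrd. Peak scores are the authors' own and equal the summed count inside, so a deeper library can reach the minimum score of 10 at more places.

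Antisense counts were frequent in the spacers, although they were between 0.298% and 1.27% of whole libraries and at most 0.268% of tRNA counts. In DUS1L they were frequent on mature rRNA too. There 28S had antisense shares of 31.4% and 27.9% with 5-ClUrd and 28.2% in the first untreated library. For 18S these were 21.1%, 34.0% and 13.4%, and for ITS1 23.5%, 18.2% and 15.3%. In the 5′ ETS the antisense strand took 25.7% and 44.0% of the counts on both strands in DUS2L with 5-ClUrd and 25.6% and 20.6% in untreated DUS2L. In DUS1L it took 55.6% and 69.5% with 5-ClUrd and 52.0% in the first untreated library. In the 3′ ETS it took 22.9% and 23.3% in DUS2L with 5-ClUrd and 15.8% and 20.7% untreated, against 80.1% and 76.8% in DUS1L with 5-ClUrd and 76.3% in its first untreated library. The external spacers of DUS1L thus had more antisense than sense counts in each of these 3 libraries.

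ITS2 had the lowest antisense share of the spacers in DUS2L. It was 7.35% and 13.9% with 5-ClUrd and 0.694% and 0.716% untreated, and 35.8% and 38.6% in DUS1L with 5-ClUrd and 20.8% in the first untreated DUS1L library. ITS1 ran the other way in DUS2L, with 12.7% and 14.7% with 5-ClUrd and 23.9% and 31.8% untreated. The 28S rRNA had antisense shares like those of ITS2 in DUS2L, 7.23% and 15.5% with 5-ClUrd and 0.829% and 1.08% untreated. Whether the antisense counts share a source with the sense counts of the spacers was not tested.

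**Figure D5:**
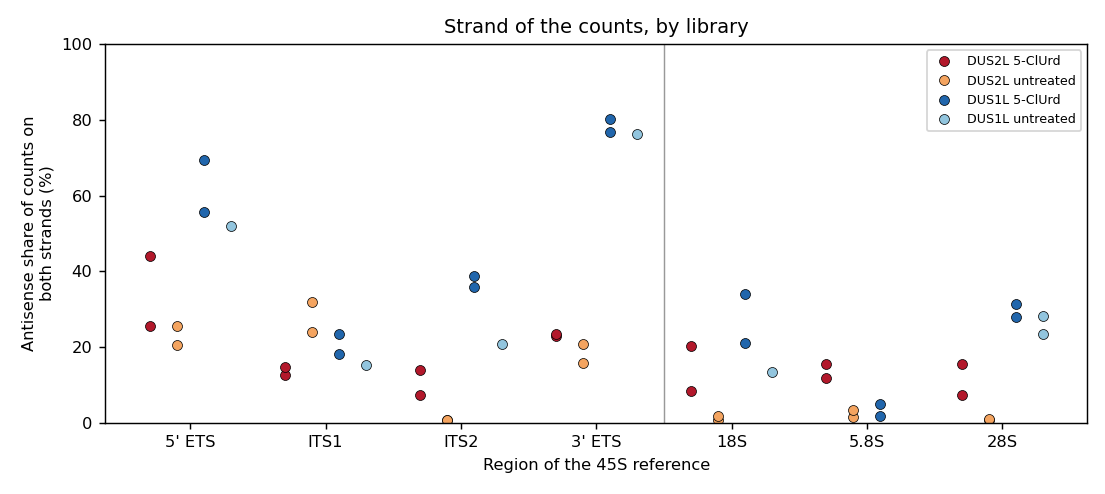
Antisense share of the counts on both strands, in percent, for the 4 spacers (left of the line) and the 3 mature rRNAs, 1 point per library with at least 20 counts on both strands together. The DUS1L libraries are above 50% in the 5′ ETS and above 76% in the 3′ ETS, and the untreated DUS2L libraries are below 1% in ITS2.

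The antisense counts gathered at single positions near some of the sense sites. Antisense position 1426, 22 nt downstream of 1404, had 76 and 367 counts in DUS2L with 5-ClUrd and 0 and 2 untreated, and 1 count in all DUS1L libraries together. Close by, antisense position 1432 had 37 and 47 counts in DUS1L with 5-ClUrd and 6 and 25 in DUS2L with 5-ClUrd. Antisense position 2127, 30 nt downstream of 2097, had 191 and 187 counts in DUS1L with 5-ClUrd and 32 and 0 untreated, and 1 and 12 in DUS2L with 5-ClUrd and none untreated. Position 1426 and the sense site 1406 were both high in treated DUS2L, as 2127 and 2098 were in treated DUS1L. In ITS1 no antisense position within 60 nt of the sites at 6010, 6215 or 6289 had more than 5 counts over the 8 libraries.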

How the data were processed

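The deposited site files held raw whole-number counts per single-nucleotide site and strand, 1 file for each of the 8 libraries. Per the submitters' processing notes, reads were processed with STAR 2.7.0f and hg38. How peaks were called and whether molecular identifiers were collapsed is not given in the sources used here. In the deposited peak files the score is a count: it equalled the summed site counts inside in 1680 of 1680 peaks.

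Sense counts were summed to 58 regions. The test was the quasi-likelihood F test of edgeR 4.0.16 in R 4.3.3, for regions and sites that reached 10 counts summed over the libraries of a fit, scaled to total sense counts, with Benjamini-Hochberg adjustment over all regions or sites and a threshold of 0.05. SE is the size of the log2 fold change divided by the square root of F. The 5-ClUrd effect was fitted within each enzyme's 4 libraries, and contrasts between enzymes over all 8. Shares were compared by exact permutation tests. Named sites were the 10 with the highest summed count and up to 10 of smallest adjusted p per planned site comparison. Alternatives were TMM, DESeq2 1.42.0 size factors and Wald test, 45S counts as library size, other minimum counts, the replicate block, each library left out, and the highest or edge sites left out. The site comparison of treated libraries, the 200-nt windows and the stretches around sites were added after the data were seen. Members and lists were chosen with earlier results of these data known. Fits were also run on simulated data with changes planted in some regions or sites. The outcome is not given here and is not used as support. The tables and figures were made with scipy 1.17.1, numpy 2.4.6, matplotlib 3.10.9 and pandas 2.3.3 under Python 3.11.15.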

Additional observations from a re-analysis of the deposited data

Results flagged for a closer look

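The effect of 5-ClUrd on 28S rRNA, the reference against which spacer densities are given, differed between the enzymes: the DUS2L effect minus the DUS1L effect was -2.30 (log2, adjusted p = 0.0251, edgeR interaction term).

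Antisense counts, which the comparisons of levels do not use, were higher in both 5-ClUrd libraries than in both untreated libraries in 3 cases. For ITS2 in DUS2L the lowest 5-ClUrd library had 48.5 antisense CPM (scaled to sense counts, 18 counts) and the highest untreated library 46.1 (6 counts). For the 5′ ETS in DUS1L the lowest 5-ClUrd library had 1910 and the highest untreated library 1753. For ITS1 in DUS1L the lowest 5-ClUrd library had 182 and the highest untreated library 90.1. The widest separation in DUS2L ran the other way: ITS1 had 51.2 and 146 antisense CPM with 5-ClUrd and 362 and 407 untreated. The differences were not tested, and the 2 untreated DUS1L libraries held 359 and 3 antisense spacer counts.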

How the results depend on the processing

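ITS2 stayed called lower with 5-ClUrd in DUS2L under each alternative except 45S scaling, with log2 fold changes between -3.54 and -2.78 apart from the libraries left out, which gave -3.32 to -2.44. The number of spacers called there was 3 with TMM factors, DESeq2 size factors or its Wald test, 2 with 45S scaling and 1 to 4 with a library left out. 45S scaling turned the 5′ ETS (1.74), ITS1 (1.44) and 3′ ETS (1.70) of that comparison, the 5′ ETS (1.30) and ITS1 (0.34) of the difference of effects, the 5′ ETS (-0.92), ITS2 (-0.16) and 3′ ETS (-0.92) between treated libraries, and the 5′ ETS (-2.22), ITS1 (-2.54), ITS2 (-0.11) and 3′ ETS (-2.87) between untreated libraries. In DUS1L the 5′ ETS turned to -0.63, -1.03 and -0.95, and ITS1 to -0.042, -0.41 and -0.36, with TMM factors, DESeq2 size factors and the Wald test. The 3′ ETS difference of effects turned to -0.71, -0.0041 and -0.16 with these and to -0.72 without the highest sites, and ITS1 between treated libraries to 0.16 without them. The difference of effects had 1 spacer called with DESeq2 size factors or its Wald test, the treated contrast 0 with TMM factors or the replicate block, and the untreated contrast 3 with DESeq2 size factors, its Wald test or 45S scaling and 2 without the highest sites. With a library left out these counts were 0 to 1, 0 to 1 and 1 to 2. Left-out libraries gave -0.39 to 3.18 for the 5′ ETS, -1.14 to 0.96 for ITS2 and -0.89 to 8.24 for the 3′ ETS in DUS1L, -1.74 to 0.40 for the 3′ ETS in DUS2L, -8.32 to 0.98 for its difference of effects, and -0.17 to 1.77 for the 3′ ETS and -1.01 to 0.26 for ITS1 between treated libraries. The extreme 3′ ETS values are fitted against a library at 0. Spacer sites called in DUS1L numbered 3 with TMM factors (1 higher, 2 lower), 8 at a minimum count of 5 (1 higher, 7 lower), 0 with the Wald test and 0 to 13 with a library left out. In DUS2L they numbered 5 with TMM factors, 15 with the Wald test, 20 and 19 at minimum counts of 5 and 20, 11 with the replicate block and 0 to 15 with a library left out. Between treated libraries they numbered 16 with the Wald test, 41 at a minimum count of 20, 8 with the replicate block and 12 to 74 with a library left out, while site 827 turned to -1.32 with the replicate block and ranged from -0.71 to 2.68, and site 1404 turned to 0.62 with the Wald test. The spacer share of 45S counts in DUS2L differed by 9.35 points with each site counted once and by 6.29 on both strands. Replicate numbers were not taken as pairs, since the labels give no shared batch. The log2 CPM differences of replicate 1 from replicate 2 were also compared over 58 regions. Those of the treated and untreated groups correlated at 0.00994 in DUS1L and 0.191 in DUS2L. The cause of these changes was not tested. Depth limits the DUS1L comparisons: the floor of 3 counts stands for 407 CPM in the second untreated library and at most 23.1 in any other.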

Other observations

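Antisense position 2727 of the 5′ ETS had counts in 7 of the 8 libraries, with 12 and 67 in DUS2L with 5-ClUrd, 97 and 40 in untreated DUS2L, 135 and 19 in DUS1L with 5-ClUrd, and 27 and 0 in untreated DUS1L. Antisense position 13125 of the 3′ ETS had 2 and 26 counts in DUS2L with 5-ClUrd, 1 and 0 in untreated DUS2L, 162 and 153 in DUS1L with 5-ClUrd, and 51 and 0 in untreated DUS1L. Antisense positions 748 and 749 of the 5′ ETS together stood at 110 to 141 counts each in the first and 85 to 129 counts each in the second DUS1L library with 5-ClUrd, and at 6 or fewer counts in every other library.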
